A study of Mus musculus with 1111 samples.

Results

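Microglia, the resident macrophages of the brain, were compared by how much of their messenger RNA encoded ribosomal proteins. Cells with 50000 or more gene-assigned reads and 500 or more detected genes were chosen by 1 measured value, the share of a cell's reads in 82 ribosomal protein genes, 50 of the large subunit and 32 of the small subunit. Within each TH number the top 25% of cells by this share were called rich and the bottom 25% poor. This gave 83, 81 and 81 rich cells in TH 1, TH 2 and TH 3, the same numbers of poor cells and 497 cells between them, out of 987 that passed of 1045 matched to a column. The rule used the measured ribosomal protein reads, so the difference in that share is a description of the choice and not a finding.

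The cells came from the brains of mice 3 months old, 20 hours after an injection of plasma proteins carrying the fluorescent label NHS-Atto647N, and every group shares this injection. Smart-seq2, a full-length method, made 1 library from each sorted cell. The labels give 3 groups by the plasma signal in the cell: plasma none, plasma low and plasma high, of which plasma high had the fewest passing cells (290). No label gives the strain, sex or genotype, and none names an animal or says what a TH number stands for. Rich and poor cells were therefore summed within each TH number, errors are the SD over the 3 TH numbers (n = 3), and no p-value is given. The median of a gene list is taken over the mean log2 ratios of its genes. Its error is the SD of the medians within single TH numbers, and the median can lie outside those 3 values. In each TH number a plasma group occupied its own columns of the plate, so plasma group and plate column cannot be told apart.

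A ribosome consists of a large and a small subunit, each built from ribosomal RNA and many different proteins that are made in matched amounts. Most ribosomal protein mRNAs begin with a terminal oligopyrimidine (TOP) tract, a C followed by an unbroken run of C or T. The same start is found on mRNAs of elongation factors and other parts of the translation machinery, and the kinase complex mTORC1 controls the translation of these mRNAs together.

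To show what these transcript starts look like, 20 bases before and 20 bases from the annotated start are given for some of the genes on which the results turn. The sequences are from RefSeq (GRCm38.p6), on the strand of the transcript, in lower case. Capitals mark the pyrimidine tract from a C that lies within 5 bases of the annotated start. In Rpl7a and Rack1 the run of C or T also extends further upstream, in lower case. Rpl7a (chr2:26910787-26910826, plus strand) and Rpl15 (chr14:18270967-18271006, minus strand) encode large-subunit proteins. Fau (chr19:6057927-6057966, plus strand) encodes a small-subunit protein fused to a ubiquitin-like part and was not among the genes used to rank the cells. Eef1a1 (chr9:78481705-78481744, minus strand) encodes the elongation factor that brings transfer RNA to the ribosome, and Rack1 (chr11:48800340-48800379, plus strand) a scaffold protein of the small subunit. Rps4x (chrX:102189372-102189411, minus strand) and Tpt1 (chr14:75845236-75845275, plus strand) are shown because no such tract lay within 5 bases of the start annotated for them.
Rpl7a: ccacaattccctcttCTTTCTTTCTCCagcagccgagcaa
Rpl15: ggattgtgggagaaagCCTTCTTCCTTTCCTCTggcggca
Fau: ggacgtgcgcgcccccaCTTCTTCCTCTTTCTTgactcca
Eef1a1: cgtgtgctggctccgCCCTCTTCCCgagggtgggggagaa
Rack1: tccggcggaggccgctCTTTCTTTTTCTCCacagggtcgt
Rps4x: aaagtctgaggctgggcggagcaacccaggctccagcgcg
Tpt1: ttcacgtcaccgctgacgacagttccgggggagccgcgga

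The search was for a C followed by at least 4 further letters that are each C or T, on the transcript strand alone. Such a tract began at the annotated start itself in 14 of the 62 ranking genes that matched a RefSeq start (22.6%), and in 3.01% of all 27025 genes with a start of the same length of sequence. Within 5 bases of the start it was found in 46.8% of the matched ranking genes and 21.2% of all genes. Of the listed TOP mRNAs outside the ribosomal proteins, 14 of 20 matched and 4 of these (28.6%) had the tract at the start. A match describes these letters and is not evidence of use of the tract.

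The ribosomal protein genes took 1.04% of all reads. The median share was 1.52% ± 0.184 in rich and 0.688% ± 0.0871 in poor cells, a ratio of 2.21 ± 0.0807. In TH 1 the rich cells ranged from 1.39% to 4.65% with a median of 1.72%, and the poor cells from 0.507% to 0.933% with a median of 0.788%. In TH 2 the medians were 1.35% and 0.629%, and in TH 3 they were 1.49% and 0.648%. The share ran without a gap through both limits: in TH 1 the last rich cell had 1.392% and the next cell below it 1.391%. Rich and poor are thus the ends of 1 continuous range, as the plot of the share by cell shows.

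**Figure D1:**
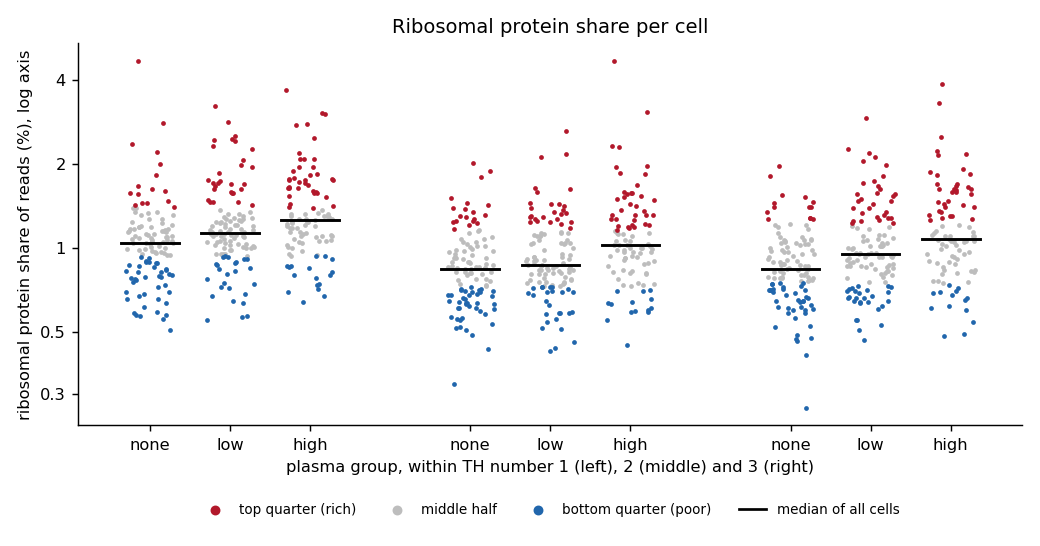
Ribosomal protein share of the reads of each cell (percent, log axis) by plasma group within each TH number, with 1 point per cell in red (rich), grey (middle) or blue (poor) and a black line at the median. The median of all cells rises from none to high within each TH number, and the points form 1 continuous range with no gap at the limits of the classes.

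Reads of the small subunit can be compared in cells ranked by the large subunit alone, since the 2 sets of genes have no read in common. The small-subunit share, taken over all reads outside the large-subunit genes, was 0.608% ± 0.105 in the top 25% and 0.318% ± 0.0322 in the bottom 25% by large-subunit share. The ratio was 2.04 in TH 1, 1.76 in TH 2 and 1.91 in TH 3, a mean of 1.90 ± 0.138. Of the top cells, 98.8%, 95.1% and 96.3% lay above the median of the bottom cells in the 3 TH numbers. Ranked the other way, by the small subunit, cells differed in their large-subunit share by 1.85 ± 0.175 times. The 2 subunits thus moved together from cell to cell, in 3 of 3 TH numbers. Both shares come from the same libraries.

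Among the ranking genes, 78 had a mean of at least 20 CPM (counts per 1000000 reads, here of all reads) in rich and poor cells, 4 lay below that, and 2 of those, Rpl10l and Rpl3l, had no read in either class. As the ranking itself implies, each of the 78 was higher in rich cells in 3 of 3 TH numbers, with log2 ratios of rich to poor from 0.90 to 1.88 and a median of 1.27. The median was 1.252 for the large and 1.304 for the small subunit. Among those with the highest ratio were Rps4x (1.88 ± 0.52), Rpl4 (1.65 ± 0.46), Rplp0 (1.63 ± 0.56), a protein of the stalk to which elongation factors bind, and Rpl18 (1.62 ± 0.29). The 5 with the lowest ratio were Rpl36a (0.90 ± 0.68), Rpl10a (0.94 ± 0.54), Rpl30 (0.97 ± 0.23), Rps27a (0.97 ± 0.20), which is made as a fusion with ubiquitin, and Rpl28 (0.99 ± 0.25). The spread of 1 gene over TH numbers was as large as much of the distance between the 2 ends of that order.

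The named markers of the rich cells lay in the lower part of this range. Rpl7a stood at 208.9, 169.3 and 207.4 CPM in the rich cells of TH 1, TH 2 and TH 3, against 139.4, 43.7 and 107.8 CPM in the poor cells (log2 ratio 1.15 ± 0.70). Rpl15 stood at 183.6, 52.4 and 103.98 CPM against 46.6, 33.6 and 62.7 CPM (1.10 ± 0.74). Rpl29 stood at 92.2, 40.4 and 70.2 CPM against 40.5, 23.95 and 29.6 CPM (1.04 ± 0.27). Rich cells were higher within each TH number for these 3 genes, while for Rpl15 and Rpl29 the lowest rich value lay below the highest poor value of another TH number.

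All other genes were compared in CPM of the reads outside the 82 ranking genes, so that the ranking could not lower them by taking up reads. Comparison needed 20 CPM on average over the 6 sums and detection in 10% of the rich and poor cells, which left 4988 genes. The size rule asked for a mean log2 ratio, on CPM plus 1, beyond 1 or -1 with 1 sign throughout the 3 TH numbers. Of the compared genes, 3.83% were higher in rich cells by this rule and 3.69% lower, 7.52% in either direction. In 3 of 3 TH numbers, and at any size, 887 genes were higher (17.8%) and 771 lower (15.5%). For 413 genes (8.28%) every rich sum lay above every poor sum, and for 6.7% every rich sum lay below every poor sum. The sums were scaled so that most genes lie near a log2 ratio of 0, which fixes the balance of the 2 directions. Scaled by total reads instead, the median over all compared genes was -0.028, with 3.65% higher and 4.17% lower.

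Few of the genes that met the size rule were abundant. Among the 789 genes with a mean of at least 200 CPM, 13 were higher and 8 lower by the rule. Of the higher genes, 170 (89.01%) were read in under 50% of the rich cells at an equal 50000 reads per cell, and for the median such gene 1 cell gave 16.4% of the reads of all rich cells. Of the lower genes, 99.5% were read in under 50% of the poor cells. The gene lists below, and the genes read in most cells, therefore carry more of the account than single rare genes.

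Of the ribosomal protein genes that the ranking did not use, Fau and Rps3a1 were also higher. Fau stood at 140.99, 122.98 and 127.3 CPM in the rich cells of TH 1, TH 2 and TH 3 and at 60.2, 58.97 and 46.01 CPM in the poor cells. Each rich value lay above each poor value, and the log2 ratio was 1.24 ± 0.20. Summed over TH numbers, Fau had 7876 reads in rich cells (127.6 CPM, exact 95% Poisson interval 124.8 to 130.5) and 4200 in poor cells (56.2 CPM, 54.5 to 57.9), intervals that cover counting error only. At equal reads, 80% of rich cells and 62.4% of poor cells held a Fau read.

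Rps3a1, the small-subunit gene whose symbol the ranking pattern does not take in and which was named after its values were seen, stood at 401, 428 and 445 CPM in rich cells against 255.8, 193.02 and 134.02 CPM (log2 ratio 1.17 ± 0.54). Fau and Rps3a1 met the size rule, and their rich and poor values did not overlap. The paralogs Rpl22l1 (log2 ratio 0.95 ± 0.52) and Rpl7l1 (0.43 ± 0.69), each close in sequence to a ribosomal protein gene, did not meet it, and their values overlapped between rich and poor cells. Without well rows A and P, discussed further on, the log2 ratio was 1.17 ± 0.28 for Fau and 1.14 ± 0.61 for Rps3a1.

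The listed TOP mRNAs that encode no ribosomal protein leaned the same way. Of 20 compared, 10 were higher in 3 of 3 TH numbers and 0 lower, against 17.8% and 15.5% of all compared genes. The median log2 ratio was 0.60, and 2 met the size rule as higher, against 3.83% of all compared genes. Tpt1, which encodes the translationally controlled tumour protein, stood at 187.8, 164.2 and 126.2 CPM in rich and between 52.7 and 78.7 CPM in the 3 sums of poor cells (1.31 ± 0.11). It was the highest of the list, though no tract was found at its annotated start above. Naca, of the complex that binds chains leaving the ribosome and named after its values were seen, was the other (1.06 ± 0.22).

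Eef1a1 and Rack1, also named after their values were seen, lay just under the size rule. Eef1a1 stood at 4835, 4150 and 3980 CPM in rich and 2771, 1974 and 1952 CPM in poor cells, a log2 ratio of 0.97 ± 0.14 with every rich value above every poor one. Rack1 stood at 602, 514 and 477 CPM against 196.6, 383.98 and 284.2 CPM (0.93 ± 0.62). Eif3k, of the initiation factor that binds the small subunit, had the lowest ratio of the list, 0.25 ± 0.57 with overlapping values. Without rows A and P the list's median was 0.52, with 4 of 21 genes higher by the rule, while Naca fell under it (0.92 ± 0.23). With cells ranked within each well row, Tpt1 also lay under the rule (0.92 ± 0.24). Over all compared genes with a matched start, those with the tract at the start had a median log2 ratio of 0.14. The 846 genes with a tract within 5 bases but not at the start, the class of the 5 tracts printed above, had one of -0.02, and those with no tract within 5 bases (2934 genes) one of -0.01.

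Lists of the machinery that builds or serves ribosomes without being part of them had medians nearer to 0. The 33 translation initiation and elongation factors compared had a median log2 ratio of 0.18 ± 0.17, with 3 higher and 1 lower by the rule, against 3.83% and 3.69% of all compared genes. The 3 higher became 1 from the mean of per-cell CPM and 0 with cells ranked within each well row. Their highest was Mcts1 (1.25 ± 1.07), which acts in reinitiation, and their lowest Eif4g3 (-1.01 ± 0.55), a scaffold of the cap-binding complex, both with overlapping values. The 15 ribosome biogenesis genes had a median of -0.06 ± 0.18, with 0 higher and 2 lower by the rule. They ran from Ubtf (0.87 ± 0.26), a factor of ribosomal RNA transcription, to Gnl3 (-1.05 ± 0.40), a nucleolar GTPase. The 18 genes of mTORC1 and Myc control had a median of 0.14 ± 0.15 and 0 genes past the rule in either direction, from Lamtor1 (0.81 ± 0.31) to Mxi1 (-0.86 ± 0.97). The 38 mitochondrial ribosomal protein genes had a median of 0.22 ± 0.24, with 3 higher and 1 lower, and 6 of 39 higher with cells ranked within each plasma group. In plasma high, where rich cells were most frequent, the 4 medians were 0.28, 0.60, 0.57 and 0.91 in the order given here, and in plasma none they were below 0. Only for the translation factors did every single TH number share these signs, as set out further on.

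Mrpl18 of the mitochondrial large subunit was among the 10 largest rises. It stood at 80.8, 89.4 and 82.9 CPM in rich and 21.4, 20.4 and 21.1 CPM in poor cells (log2 ratio 1.96 ± 0.11), read in 14.7% and 8.57% of cells at equal reads. Mrps7 of the mitochondrial small subunit was lower, at 24.4 ± 7.72 against 57.6 ± 9.52 CPM (-1.24 ± 0.50).

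Genes for oxidative phosphorylation, the process by which mitochondria make ATP, were the nuclear list with the highest median among those of 5 or more compared genes. Of 74 nuclear genes for the respiratory chain and ATP synthase, 17 met the size rule as higher and 0 as lower, and 44 were higher and 0 lower in 3 of 3 TH numbers, against 3.83% and 17.8% of all compared genes. The median log2 ratio was 0.71 ± 0.17. By complex it was 0.66 for complex I (36 genes, 8 higher by the rule), 0.35 for complex II (4 genes, 0 higher), 0.92 for complex III (9 genes, 2 higher), 0.92 for complex IV (9 genes, 3 higher) and 0.73 for ATP synthase (15 genes, 4 higher). Without well rows A and P, 10 of 70 genes met the rule as higher and 0 as lower, with a median of 0.60.

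Ndufc1, a small subunit of complex I, had the highest ratio of this list at 58.6, 30.7 and 17.2 CPM in rich and 8.76, 6.18 and 10.3 CPM in poor cells (1.82 ± 0.999), and without rows A and P it did not meet the rule (1.33 ± 1.13). Ndufa6 of the same complex, named after its values were seen, stood at 123.8, 143.8 and 77.5 CPM against 55.8, 37.3 and 32.7 CPM (1.42 ± 0.43), with no overlap. Ndufs1, the large iron-sulfur subunit of complex I, had the lowest ratio, -0.90 ± 1.51, with overlapping values.

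The transcripts of the mitochondrial genome were higher as well. All 8 compared were higher in 3 of 3 TH numbers and 4 by the size rule, against 17.8% and 3.83% of all compared genes. The median log2 ratio was 0.94 ± 0.04, with 0.84, 0.91 and 0.91 within single TH numbers. mt-Nd2 of complex I stood at 853, 797 and 668 CPM in rich and 314.4, 300.7 and 261.2 CPM in poor cells, with no overlap and a log2 ratio of 1.40 ± 0.04. mt-Nd6 (1.25 ± 0.51), mt-Nd5 (1.07 ± 0.56) and mt-Nd1 (1.03 ± 0.26), also of complex I, met the rule, and mt-Cytb (0.86 ± 0.17), mt-Co1 (0.74 ± 0.07), mt-Nd3 (0.64 ± 0.36) and mt-Nd4 (0.60 ± 0.34) did not. Without rows A and P, 3 of 8 met the rule, and mt-Nd1 lay under it (0.95 ± 0.27). It was 2 of 8 from the mean of per-cell CPM, and with cells ranked within each plasma group or within each well row 1 of 8 did, mt-Nd2 (1.07 ± 0.10 and 1.20 ± 0.29). Mitochondrial transcripts took a median of 1.04% ± 0.249 of the reads outside the ranking genes in rich and 0.626% ± 0.0694 in poor cells. Across cells, Spearman's rho between this share and the ribosomal protein share was 0.39 in TH 1, 0.30 in TH 2 and 0.28 in TH 3 over all 987 cells by TH number, as a description of shares that come from the same libraries.

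The disease-associated list, genes raised in microglia around amyloid and in ageing, was higher too. Of 16 compared, 4 met the size rule as higher and 0 as lower, and 14 were higher in 3 of 3 TH numbers, against 3.83%, 3.69% and 17.8% of all compared genes, with a median log2 ratio of 0.50. Apoe, which encodes the main lipid carrier of the brain, was the largest rise of all genes that could be named. It stood at 810.3, 514 and 2228 CPM in the rich cells of TH 1, TH 2 and TH 3 and at 98.3, 26.5 and 92.1 CPM in the poor cells. Every rich value lay above every poor value, and the log2 ratio was 3.95 ± 0.81. An Apoe read was found in 25.7% of rich and 9.39% of poor cells at equal reads, and 1 cell gave 27.5% of all Apoe reads of the rich cells. Without the cell with most reads in each sum the log2 ratio was 3.89 ± 1.295, and without well rows A and P it was 4.01 ± 1.04. It was 2.77 in cells ranked by the large subunit alone and 6.69 between the top and bottom 10%, so its size moved with the way cells were chosen.

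Cd52, a surface glycoprotein of immune cells, stood at 238.01, 121.5 and 145.3 CPM in rich and 58.9, 39.2 and 22.1 CPM in poor cells (2.09 ± 0.53). It was read in 42.04% of rich and 20.4% of poor cells. Lyz2, the lysozyme of macrophages, stood at 845, 600.1 and 669.9 CPM against 158.4, 328.8 and 209.3 CPM (1.65 ± 0.77). Fth1, the heavy chain of the iron store ferritin, stood at 3253, 2052 and 1909 CPM against 1292, 1284 and 719.8 CPM (1.14 ± 0.40). Lyz2 and Fth1 were named after their values were seen. None of the 3 overlapped between rich and poor cells. Without Apoe, Lyz2, Cd52 and Fth1 the other 12 genes of the list had a median of 0.41. Ctsd, a lysosomal protease, had the lowest ratio of the list, 0.03 ± 0.12. Without well rows A and P, 4 of 16 still met the rule and the median was 0.37.

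**Figure D2:**
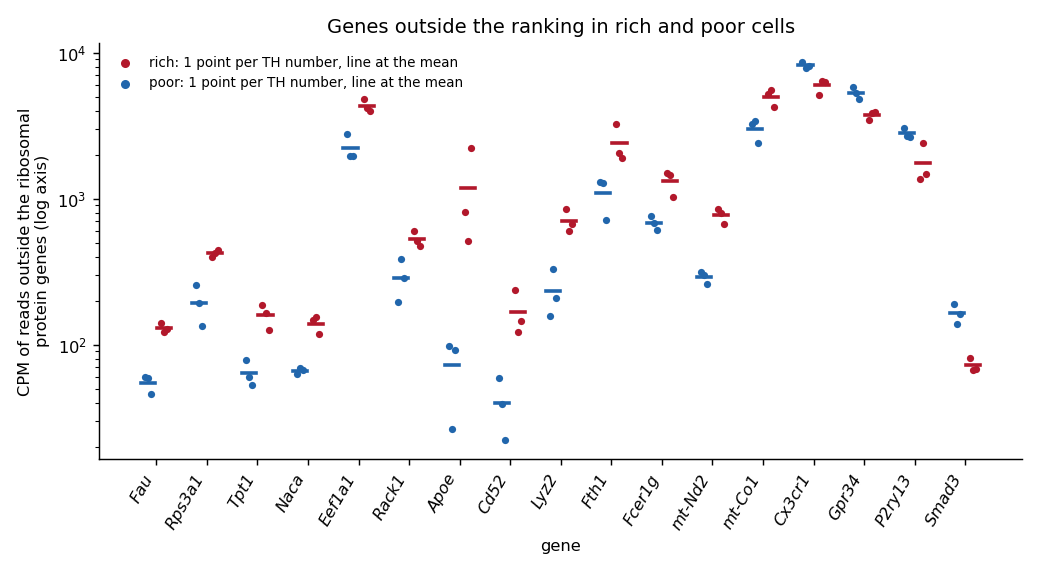
CPM of reads outside the 82 ranking genes (log axis) for 17 genes that the ranking did not use, in rich (red) and poor (blue) cells, with 1 point per TH number and a line at the mean of 3. All red points lie above all blue points for the genes from Fau to mt-Co1, and below them for Cx3cr1, Gpr34, P2ry13 and Smad3. The genes were picked from those named in the text, some after their values were seen, and do not stand for all genes. Of all compared genes, 8.28% lay wholly above and 6.7% wholly below. Cst3 of the homeostatic list, higher in rich cells (log2 ratio 0.57 ± 0.08), is not shown.

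Homeostatic genes did not move as 1 group. Of 20 compared, 6 were higher and 8 lower in 3 of 3 TH numbers, against 17.8% and 15.5% of all compared genes. The size rule was met by 0 in either direction, against 3.83% higher and 3.69% lower of all compared genes. The median log2 ratio was -0.19 ± 0.11. P2ry13, a purine receptor, had the lowest ratio of the list, with 1369, 2408 and 1476 CPM in rich and 3064, 2702 and 2641 CPM in poor cells (-0.72 ± 0.51). The fractalkine receptor Cx3cr1 stood at 5965 ± 729 against 8189 ± 361.9 CPM (-0.46 ± 0.24), and the lysophospholipid receptor Gpr34 at 3435, 3855 and 3919 CPM against 5794, 5253 and 4788 CPM (-0.50 ± 0.24). For these 3 receptors no rich value reached the lowest poor value. Cst3, the protease inhibitor cystatin C, had the highest ratio, at 34211, 27129 and 25667 CPM against 22793, 17387 and 18354 CPM (0.57 ± 0.08).

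The 8 microglia markers, most of them in that list, had a median log2 ratio of -0.27 ± 0.15 and 6 of 8 were lower in 3 of 3 TH numbers, against 15.5% of all compared genes. Their summed level ran from 44587 to 56653 CPM in rich and from 53499 to 59023 CPM in poor cells, so both classes held the transcripts of microglia at high levels. Of the microglial transcription factors, 2 of 15 met the size rule as lower and 0 as higher, against 3.69% and 3.83% of all compared genes. Their median was -0.22 ± 0.40, and 0 of 15 met the rule from the mean of per-cell CPM. Smad3, the transducer of TGF-beta signals, stood at 80.7, 67.6 and 68.4 CPM in rich and 189.3, 139.6 and 162.3 CPM in poor cells (-1.16 ± 0.11), with no overlap. It was read in 13.5% of rich and 22.9% of poor cells. Ikzf1, named after its values were seen, was the other (-1.11 ± 0.26). Without well rows A and P the log2 ratio of Smad3 was -1.14 ± 0.08, and that of Ikzf1 was -0.96 ± 0.27, under the rule.

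Among the effector functions of microglia, the complement and Fc receptor list had a median log2 ratio of 0.29 ± 0.04, with 8 of 14 higher and 0 lower in 3 of 3 TH numbers and 0 past the rule. Of all compared genes, 17.8% were higher in 3 of 3 and 3.83% by the rule, the shares beside which the counts of these lists stand. Fcer1g, the shared signalling chain of Fc receptors, was the highest at 1326 ± 260 against 685 ± 78.7 CPM (0.94 ± 0.17). The actin and cytoskeletal list had a median of 0.40 ± 0.04, with 16 of 27 higher and 2 lower in 3 of 3, from Arpc1a (1.29 ± 0.81), of the complex that branches actin filaments, to Tpm4 (-1.06 ± 0.91). The lysosome list had a median of 0.22 ± 0.03 and 1 of 41 past the rule in each direction, the proton pump subunit Atp6v1f (1.36 ± 0.43) and the ion channel Mcoln1 (-1.41 ± 0.84). The proteasome list had a median of 0.34 ± 0.26 and 3 of 32 higher, led by Psmb3 (1.07 ± 0.24) of its catalytic core. These 3 became 0 from the mean of per-cell CPM and 1 without rows A and P or with cells ranked within each well row.

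The inflammatory cytokine and chemokine list had 3 of 14 higher and 0 lower by the rule, against 3.83% and 3.69% of all compared genes, and a median of 0.49 ± 0.20. The count fell to 1 of 14 without rows A and P and with cells ranked within each plasma group (median 0.29) or within each well row (median 0.36). Its highest was the chemokine Ccl12 (1.62 ± 0.90), for which 1 cell gave 41.4% of the reads of the rich cells and the values overlapped. The interferon list, with 6 of 29 genes compared, had a median of 0.49 ± 0.23 and 0 past the rule, and the values overlapped between rich and poor cells for Slfn2 (0.71 ± 1.07), Bst2 (0.54 ± 0.68), Irf9 (0.44 ± 0.37), Trim30a (0.18 ± 0.36) and Slfn8 (-0.49 ± 0.74). Antigen presentation had a median of 0.13 ± 0.08 over 11 genes with 0 past the rule, from the immunoproteasome subunit Psmb8 (0.80 ± 0.25) to Psmb9 (-0.56 ± 1.45). Within single TH numbers its medians were higher, at 0.25, 0.39 and 0.38. Glycolysis had a median of 0.44 ± 0.09 over 11 genes with 0 past the rule, from the enzyme Tpi1 (0.92 ± 0.33) to the glucose transporter Slc2a1 (-0.46 ± 2.07). Its medians within single TH numbers were lower, at 0.38, 0.20 and 0.27.

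Lists linked to cell handling and stress gave no lean in either direction. The 15 immediate early and dissociation genes had a median of -0.05 ± 0.36 and 0 past the rule, from Hsp90aa1 (0.83 ± 0.42) to Jun (-0.67 ± 0.54). Within single TH numbers their medians were 0.34, 0.37 and -0.26. The 15 genes of endoplasmic reticulum and integrated stress had a median of -0.11 ± 0.18 and 0 past the rule, from Manf (0.69 ± 0.39) to Atf6 (-1.52 ± 1.57). Only 2 of 20 proliferation genes reached the levels compared, Pcna (0.54 ± 0.59) and Tubb5 (-0.09 ± 0.57).

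Genes of nuclear regulation had medians near or below 0. The Zfp zinc finger genes had 1 of 55 higher and 8 lower by the rule, against 3.83% and 3.69% of all compared genes, and a median log2 ratio of -0.26 ± 0.20. The 8 lower genes became 4 of 55 from the mean of per-cell CPM and 4 of 57 with cells ranked within each well row. They ran from Zfp398 (1.49 ± 1.19) to Zfp646 (-1.91 ± 0.87), which stood at 15.1 ± 5.73 in rich and 76.5 ± 74.2 CPM in poor cells. Splicing factors had a median of -0.07 ± 0.05 over 30 genes, from Snrpd1 (0.65 ± 0.95) to Hnrnpl (-1.26 ± 1.09), and chromatin remodellers one of 0.05 ± 0.17 over 35 genes, from Kdm6a (1.06 ± 0.43) to Chd8 (-1.67 ± 1.61).

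The 7 snoRNA hosts and nuclear long RNAs had a median of 0.13 ± 0.60, and 0 met the rule. Malat1, a nuclear RNA that makes no protein, stood at 10602 ± 2679 in rich and 9186 ± 2423 CPM in poor cells (0.21 ± 0.03). The others were Zfas1 (1.06 ± 1.31), Snhg3 (0.42 ± 0.58), Neat1 (0.13 ± 1.93), Kcnq1ot1 (-0.10 ± 0.95), Snhg20 (-0.34 ± 0.20) and Snhg6 (-0.62 ± 1.68), each with overlapping values.

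**Figure D3:**
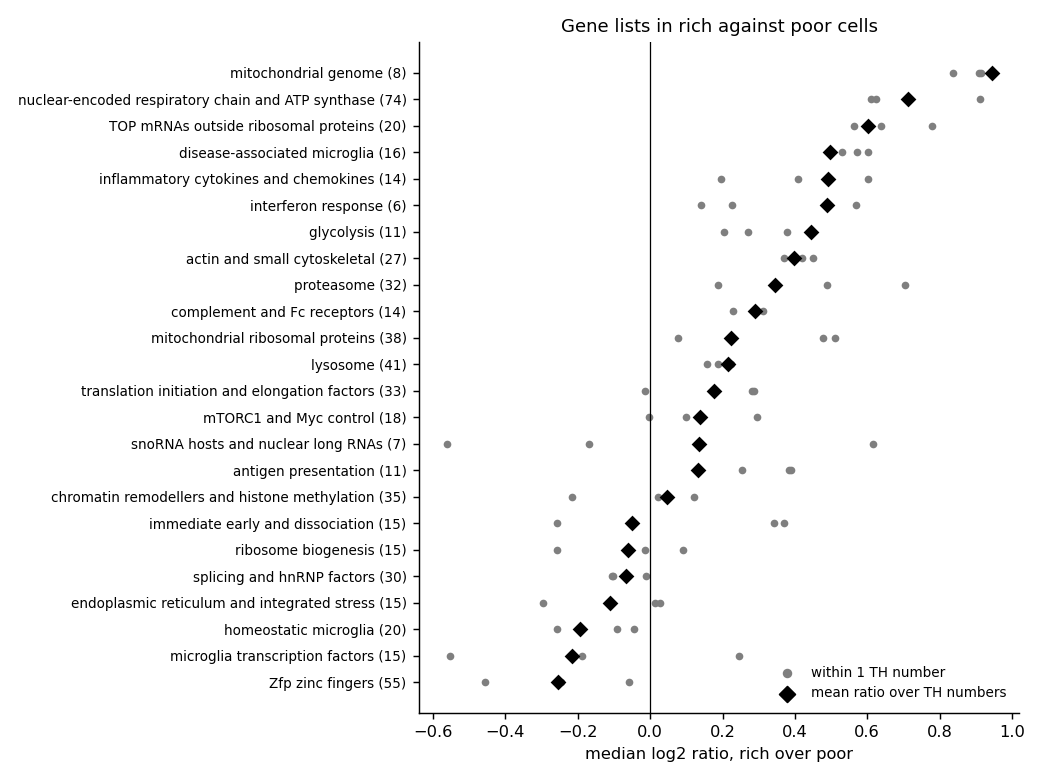
Median log2 ratio of rich to poor cells for gene lists with at least 5 compared genes (number compared in brackets), with a grey point for the median within each TH number and a black diamond for the median of the mean ratios, which can lie outside the 3 points. The mitochondrial genome (0.94) and the nuclear respiratory chain (0.71) lie at the top, and the Zfp genes (-0.26) at the bottom.

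After Apoe, the largest rises were Wdr82, of a complex that methylates histones (2.44 ± 1.59), Cd52, Casp4, an inflammatory caspase (2.01 ± 0.95), Cops5, the protease of the COP9 signalosome (1.97 ± 0.84), Mrpl18, Pom121, of the nuclear pore (1.94 ± 1.39), Stx16 (1.91 ± 0.67), Fgfr1op (1.89 ± 1.13) and Knop1 (1.88 ± 0.29). Casp4 was read in 8.98% of rich and 10.2% of poor cells at equal reads, so its higher level did not come with more cells that held it. The largest falls were Ranbp2, also of the nuclear pore (-2.91 ± 1.83), Ufd1 (-2.67 ± 2.23), Zzz3 (-2.48 ± 0.90), Hnrnph3 (-2.20 ± 1.46), Nnt (-2.19 ± 0.37), Htt, the huntingtin gene (-2.04 ± 1.02), Fbxo38 (-1.98 ± 0.50), Vps54 (-1.95 ± 1.02), Dicer1, the enzyme that processes microRNA precursors (-1.94 ± 0.65), and Ptprs (-1.93 ± 1.45). Nnt stands on 2 overlapping gene records, so its reads may have been split between them. Ranbp2 was read in 4.90% of rich and 12.7% of poor cells, and stood at 0.632, 10.3 and 6.73 CPM in rich against 37.9, 20.9 and 70.2 CPM in poor cells. Dicer1 stood at 21.8, 10.2 and 13.1 CPM against 55.6, 67.5 and 51.9 CPM, but without rows A and P neither Dicer1 (-1.49 ± 1.65) nor Ranbp2 (-1.60 ± 1.62) met the rule.

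The ratio also moved with the length of the gene's exons. Over 5 equal classes of the compared genes, from the shortest summed exon length (up to 2559 bases) to the longest (8241 to 93092 bases), the median log2 ratio was 0.29, 0.08, -0.06, -0.11 and -0.18. By the size rule 77 genes were higher and 17 lower in the shortest class, and 22 were higher and 55 lower in the longest. Ribosomal protein genes are short themselves, with a median of 1776 bases among the 78. Within the shortest class, where all genes had a median of 0.29, the 50 respiratory chain genes had a median of 0.86 and the 10 disease-associated genes one of 0.55. In that same class the 21 mitochondrial ribosomal protein genes had a median of 0.12 and the 10 homeostatic genes one of -0.27. The part of exon length in these ratios was not tested.

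**Figure D4:**
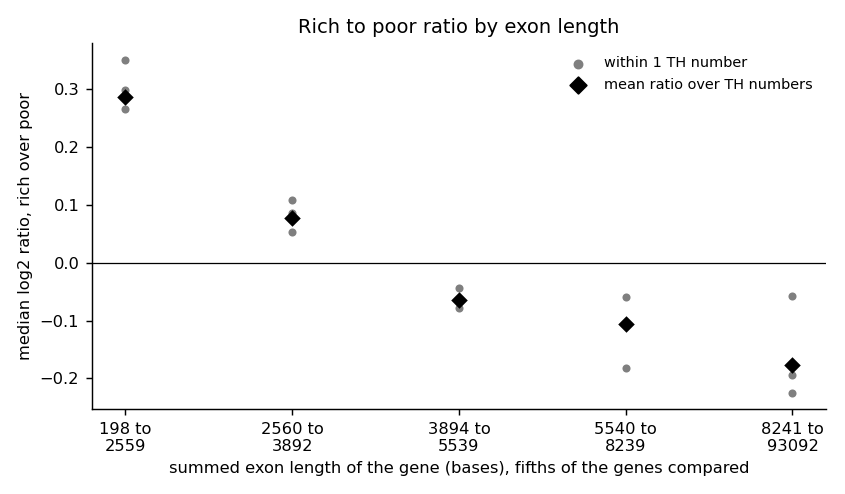
Median log2 ratio of rich to poor cells over 5 equal classes of compared genes by summed exon length in bases, with a grey point for each TH number and a black diamond for the mean ratio. The median falls from 0.29 in the shortest class to -0.18 in the longest.

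The libraries themselves differed somewhat. Median reads per cell were 214836 ± 64215 in rich and 260285 ± 78145 in poor cells, and lower in rich cells in 3 of 3 TH numbers. The 6 sums of cells held between 15986135 and 33263580 reads. At an equal 50000 reads, the median genes per cell were 1734, 1363 and 1541 in rich and 1773, 1598 and 1717 in poor cells, a difference of -150 ± 100.6 genes. Markers of other cell types were low in both: at least 3 markers of another type at 10 CPM or more were found in 2 rich cells (exact 95% binomial interval 0.0990% to 2.92%) and 3 poor cells (0.253% to 3.54%). For border-associated macrophages, which also hold Apoe and Lyz2, 5 of 7 markers were at 0 in both, and the summed level ran from 0 to 35.8 CPM in rich and from 0 to 7.02 CPM in poor cells. For monocytes 5 of 6 markers were at 0, and the sum ran from 0 to 12.9 and from 0.69 to 6.69 CPM. Of the other marker genes, 4 reached the levels compared, Csf3r (-0.30 ± 0.11), Bsg (0.38 ± 0.10), Slc1a3 (-0.45 ± 0.43) and Cnp (-0.43 ± 0.78), and 0 of them met the rule.

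Rich cells were unevenly placed on the plates. Of the 90 cells in the outer well rows A and P, 55 were rich (61.1%, interval 50.3% to 71.2%) and 4 poor (4.44%, 1.22% to 10.99%). In rows B to O, 190 of 897 were rich (21.2%, 18.6% to 24%) and 26.9% poor (23.99% to 29.9%). Within rows B to O the percentage also varied with position, from 8.82% rich in row J to 31.7% in B, 28.6% in C, 30.8% in N and 37.5% in O, so leaving out rows A and P removes part of this unevenness. The higher percentage in rows A and P held in each TH number, where rows A and P were 72.4%, 56.7% and 54.8% rich. Cells of these rows had a median of 194753 reads against 235325 in the other rows. With rows A and P left out and the classes drawn anew, a choice made after seeing the data, 3.34% of genes were higher and 3.44% lower by the size rule. Of these higher genes 62.3% were among the higher genes above, and 54.5% of those were found again; for the lower genes the shares were 55.8% and 52.2%. Ranking within each well row as well, also chosen after seeing the data, gave 3.17% and 3.83%, with 43.8% of these higher and 44.04% of these lower genes shared, which are 36.6% and 46.2% of those above.

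Rich cells were more frequent in the groups with more plasma signal, though plasma group and plate column cannot be told apart. They made up 14.2% ± 2.45 of plasma none (49 cells, interval 10.7% to 18.3%), 24.8% ± 2.69 of plasma low (87 cells, 20.4% to 29.6%) and 37.6% ± 0.0747 of plasma high (31.99% to 43.4%). Poor cells made up 35.3%, 22.2% and 15.5%, in the same order. In TH 1, TH 2 and TH 3 the rich percentages were 13.8, 16.8 and 11.97 in plasma none and 37.6, 37.5 and 37.6 in plasma high, so these 2 groups did not overlap. The median ribosomal protein share was 0.906% ± 0.115, 0.982% ± 0.132 and 1.12% ± 0.125. Within rows B to O, the plasma none cells were 10.1% rich, those with low signal 20.4% and those with high signal 34.8%. Within rows A and P these values were 47.4%, 68.8% and 75%, so the order was the same in both sets of rows.

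**Figure D5:**
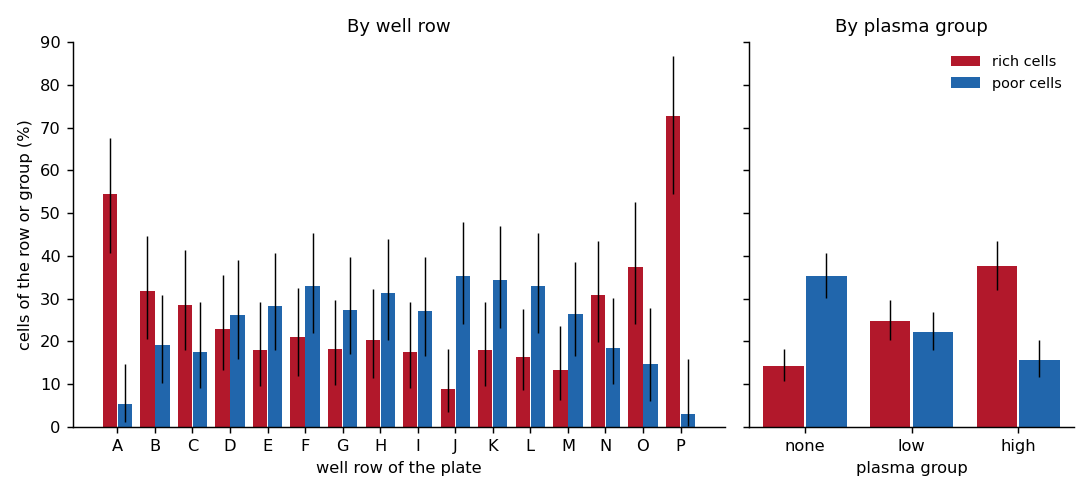
Percentage of cells that were rich (red) or poor (blue) by well row of the plate (left) and by plasma group (right), over all 3 TH numbers, with exact 95% binomial intervals that cover counting error only. Rows A and P stand above the others in rich cells (54.4% and 72.7%), and rich cells increase from plasma none to plasma high as poor cells decrease.

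Since the groups differ in their share of rich cells, rich and poor cells were also compared within each plasma group, with the same limits. Fau was higher in rich cells in all 3, with log2 ratios of 1.13, 0.93 and 1.18 from none to low to high. For Apoe the values were 1.58, 1.77 and 4.04, for Cd52 1.70, 2.54 and 2.02, for Lyz2 1.44, 0.57 and 2.43, and for mt-Nd2 1.12, 1.14 and 1.51. The disease-associated list had medians of 0.52 ± 0.11, 0.48 ± 0.24 and 0.56 ± 0.11, the mitochondrial genome 0.38 ± 0.51, 0.81 ± 0.12 and 0.86 ± 0.20, and the respiratory chain 0.22 ± 0.44, 0.78 ± 0.05 and 0.79 ± 0.21. In plasma none the respiratory chain was above 0 in TH 1 alone, with 0.70, -0.07 and -0.05 in the single TH numbers. The TOP mRNAs had 0.32 ± 0.22, 0.48 ± 0.14 and 1.34 ± 0.12. Each list value here is a median of mean ratios, and for the last one the medians in single TH numbers were 0.91, 1.10 and 1.13. For other lists this median changed sign between the groups, but only the translation factors did so in 3 of 3 TH numbers. From none to low to high the medians were -0.99 ± 0.68, -0.54 ± 0.40 and 0.33 ± 0.43 for the Zfp genes, where the single TH numbers of plasma high gave 0.66, -0.03 and -0.12. The medians were -0.34 ± 0.46, 0.30 ± 0.62 and 0.40 ± 0.09 for the proteasome and -0.70 ± 0.67, 0.16 ± 0.36 and 0.91 ± 0.36 for the mitochondrial ribosomal proteins. In plasma none the single TH numbers gave 0.26, 0.23 and -0.55 for the proteasome. For the mitochondrial ribosomal proteins they gave 0.79, -0.11 and -0.52. For ribosome biogenesis the medians were -1.27 ± 0.58, 0.11 ± 0.24 and 0.60 ± 0.60, for mTORC1 and Myc control -0.53 ± 0.68, 0.47 ± 0.12 and 0.57 ± 0.30, and for the translation factors -0.63 ± 0.35, 0.28 ± 0.29 and 0.28 ± 0.09. Ribosome biogenesis had -0.06, -0.43 and -0.51 in the single TH numbers of plasma low, and -0.05, 1.05 and 0.08 in those of plasma high. The mTORC1 and Myc list had 0.32, -0.24 and -1.03 in those of plasma none, and 0.37, 0.47 and -0.09 in those of plasma high. Whether the plasma groups differ in these ratios was not tested, and plasma none has the fewest rich cells (16, 19 and 14 in the 3 TH numbers). When the classes were drawn within each TH number and plasma group, which gives each group the same share of rich cells, 3.68% of genes were higher and 3.94% lower. Of these 59.5% and 50.5% were shared, which are 57.6% and 54.3% of those called above. The log2 ratio of Apoe was then 3.45 ± 0.48 and that of Fau 1.21 ± 0.25, while Fth1 lay under the rule (0.96 ± 0.37).

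Some genes that met the rule as higher overlap a ranking gene on the genome, and in these data their reads cannot be told apart from it where strand was not used in counting. Among them were Wdr38, Gm45713, Ccdc84, Tlcd1, D730044K07Rik, Gm28037 and Gm49804, which overlap Rpl35, Rpl13a, Rps25, Rpl23a, Rpl30, Rpl24 and Rps10 in that order. Their log2 ratios lay between 1.04 (D730044K07Rik) and 1.52 (Wdr38). These 7 are counted among the higher genes.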

How the data were processed

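Smart-seq2 libraries of sorted single microglia were analysed. The deposited values are counts of reads per gene and cell, 1 table per TH number with 35583 genes. In 1 column of TH 3 the authors' values are expected counts, since 2 were not whole, and they were rounded. The submitters' processing notes name bcl2fastq, Trim Galore, STAR 2.5.3a, Seurat and mm10 with no roles. Per the file headers, TH 2 and TH 3 used top hits only. How reads were counted, and whether by strand, is not given in the sources used here. Of 1111 labelled cells, 1045 matched a column by well and TH number and 66 were not analysed here; 1045 further columns of spread were not used.

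Reads were summed over the cells of each TH number and class and scaled with TMM factors (edgeR 4.0.16, R 4.3.3) over genes outside the 82 ranking genes, and compared as log2 of CPM plus 1 within each TH number. DESeq2 1.42.0 size factors were an alternative. Passing cells had 50098 to 2264846 reads (median 234297), and reads were not molecules, so intervals cover counting error only. Each comparison is over 3 TH numbers, which are not named as animals or batches. Cells were sorted singly, no doublet caller was run and no cells were clustered. Named genes were the markers, the 5 highest and 5 lowest ranking genes, the 10 largest rises and 10 largest falls past the size rule without predicted or clone-named genes, and the highest and lowest gene of each list, with all genes of lists of up to 8. Exon lengths are from GENCODE M21 (GRCm38), in which 35546 of 35583 gene IDs were found. The ratio code was tested on simulated data. The members, gene lists and rules were chosen with earlier results of these data known. Some genes that these rules name are not reported here.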

Additional observations from a re-analysis of the deposited data

Results flagged for a closer look

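In the named genes and lists (97 genes, 26 lists and 3 pairs of plasma groups), 3 genes and 1 list had ratios of rich to poor of opposite sign in 2 plasma groups, in each of the 3 TH numbers. The difference was not tested in any of them. The median of the translation initiation and elongation factors was -0.63 in plasma none and 0.28 in each of the groups with low and high signal. Pcna, a clamp of DNA replication, had -5.88 in plasma none and 1.91 in plasma low. The protease Ctsd had -0.20 in plasma none and 0.14 in plasma high. Bsg, a surface glycoprotein listed as an endothelial marker, had -0.26 in plasma none and 0.27 in plasma low. Plasma none held 14 to 19 rich cells per TH number, so its sums rest on the fewest cells.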

How the results depend on the processing

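The percentage of compared genes past the size rule (3.83 higher, 3.69 lower) moved with how many cells each class held: it was 8.78 and 10.7 for the top and bottom 10% of cells, 0.625 and 0.684 for the upper and lower 50%. It was 4.48 and 5.74 with no filter on low values, 10.9 and 9.42 for ratios of at least 1.5-fold, and 6.11 to 7.07 and 6.79 to 7.01 with 1 TH number left out, where 2 signs suffice. In the other alternatives it stayed within 1.5 times. The difference in ribosomal protein share (0.832) was 1.31 points for 10% classes and 0.452 for 50% classes, the small-subunit ratio (1.90) was 2.53 and 1.44, and the difference in genes per cell at equal reads (-150) was -342 for 10% classes. With 1 TH number left out these ranged from 0.784 to 0.886, from 1.84 to 1.98 and from -206 to -108.

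The percentage of rich cells in plasma high minus plasma none (23.4 points) was 14.2 for 10% classes, 29.5 for 50% classes, 20.7 with the stricter cell filter, 27.3 without the outermost wells, 27.02 with ranks within well rows, 22.3 to 24.7 with 1 TH number left out, and -0.027 with ranks within plasma groups, which fix it at 0 by construction.

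For 10% classes the median log2 ratio was 0.86 for the TOP mRNAs, 1.11 for the respiratory chain, 1.04 for the mitochondrial genome, 0.66 for the disease-associated, -0.39 for the homeostatic and -0.69 for the Zfp genes. For 50% classes it was 0.37 for the TOP mRNAs, 0.46 for the respiratory chain, 0.62 for the mitochondrial genome, 0.29 for the disease-associated and -0.067 for the homeostatic genes. The mitochondrial genome had 0.69 with no filter, 0.89 from per-cell means, 0.90 ranked by the small subunit, 0.74 within plasma groups, 0.86 with the stricter cell filter and 0.78 within well rows. The disease-associated list had 0.79 with no filter, 0.57 without the top cell, 0.43 ranked by the large subunit, 0.45 within plasma groups, 0.38 without the outermost wells and 0.37 without rows A and P. The TOP mRNAs had 0.74 without the top cell. With 1 TH number left out the medians ranged from 0.57 to 0.72 (TOP mRNAs), 0.70 to 0.79 (respiratory chain), 0.80 to 0.97 (mitochondrial genome), 0.48 to 0.55 (disease-associated), -0.18 to -0.080 (homeostatic) and -0.38 to -0.22 (Zfp).

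Some values changed sign. For 10% classes these were Ubtf (-0.18), Gnl3 (1.61), Kdm6a (-0.82), Chd8 (0.13), Irf9 (-0.17), Tpm4 (1.07), the interferon list (-0.17) and the splicing list (0.044). For 50% classes they were Fgfr1op (-0.61), Snhg20 (0.044), the translation factors (-0.014) and the splicing list (0.011). Ranked by the large subunit, Fgfr1op (-0.044) and the splicing list (0.040) did so, and ranked by the small subunit Gnl3 (0.30) and Irf9 (-0.22). Ubtf (-0.014) did so from per-cell means, Malat1 without the outermost wells (-0.068) and without rows A and P (-0.054), and Kdm6a (-0.76) and Irf9 (-0.29) within well rows. The cause of these changes was not tested. Of the 2000 values of named genes under the alternatives, 1797 moved by less than their SD, 9.35% by more, and 0.8% changed sign. Each ratio already pairs the rich and poor cells of 1 TH number. By replicate number, no paired analysis was possible because those numbers name wells and match no rich cell to a poor one. Depth limits genes read in few cells, for which 1 cell can give a large part of a sum.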
